A study of Mus musculus with 42 samples.

Results

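Uterine tissue-resident natural killer (trNK) cells of C57BL/6 mice were examined for 9 genes of inhibitory and costimulatory receptors, Ctla4, Icos, Pdcd1, Tigit, Cd96, Cd226, Havcr2, Lag3 and Klrg1. These genes were taken by name, and they are 9 of the 54353 genes that all bulk RNA-Seq files share. They were chosen with earlier results of these data known, so a count of them beside a share of all genes is a description only. Every one was followed in 34 bulk libraries, and 8 of them, without Lag3, also in 1 joined set of single uterine cells. Lag3 was not analysed in the single cells.

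The bulk libraries formed 4 experiments with 2 libraries in each of 17 groups. In the gestation experiment, CD45+NK1.1+NKp46+CD49a+CXCR6- cells came from uteri of virgin mice and of mice at gestational day (gd) 6.5 and gd8.5. In the subset experiment, the same gate at gd8.5 was split by CD55 and 4-1BB into CB_low, CB_int and CB_hi cells, which the study calls trNK-V, trNK-D and trNK-T. The inhibitor culture held live NK1.1+ cells grown without IL-21 (trNK_ctrl), with 20 ng/mL IL-21 or with 20 ng/mL IL-21 and 1 μM Stattic, a STAT3 inhibitor (iSTAT3), for 3 days. This Stattic dose is that of the labels, and the study's methods give it in mM. The time course held trNK cells of gd6.5 uteri in IL-15 (10 ng/mL in the sample labels), with or without 20 ng/mL IL-21, at 0, 6, 24 and 72 h. By the study's text, the mice were adult wild-type females, and the inhibitor culture and the time course both started from trNK-V cells of gd6.5 uteri. By its methods, the medium of the inhibitor culture held IL-15 in all 3 groups. All groups carried the wild-type genotype, and the cultured cells grew without the other cells of the decidua. The labels do not say whether the 2 libraries of a group came from separate mice or cultures, so p-values measure the spread between these libraries only.

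Checkpoint receptors sit on lymphocytes and raise or lower the signal that other receptors give. CTLA-4 and ICOS belong to the CD28 family, where CTLA-4 takes B7 ligands away from CD28 while ICOS recruits phosphoinositide 3-kinase after binding ICOS ligand, and PD-1, the product of Pdcd1, recruits the phosphatase SHP-2 after binding PD-L1 or PD-L2. TIGIT, CD96 and CD226 (DNAM-1) share nectin-type ligands such as the poliovirus receptor, with CD226 as the activating partner. TIM-3 (Havcr2) binds galectin-9 among other ligands, LAG-3 binds MHC class II, and KLRG1 binds cadherins through a lectin-like domain and is a common marker of mature NK cells. TIM-3 and KLRG1 are well known on NK cells, and decidual NK cells face trophoblast that carries nectin-type and B7-family ligands.

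Of the 9 genes, 3 lie on mouse chromosome 1 (mm10). Ctla4 (ENSMUSG00000026011) was annotated at chr1:60887000-60915832 on the plus strand and Icos (ENSMUSG00000026009) at chr1:60977927-61000320 on the plus strand, with 62094 bases between them and 113640 bases between Cd28 and Ctla4. Pdcd1 (ENSMUSG00000026285) lies apart at chr1:94038305-94052553 on the minus strand. Tigit (chr16:43648867-43664146) and Cd96 (chr16:46035657-46120251) share chromosome 16 and the minus strand. Klrg1 (chr6:122270596-122282882) and Lag3 (chr6:124904361-124911705) share chromosome 6 and the minus strand, and Havcr2 is at chr11:46454935-46481255 on the plus strand. The pseudogene Rpl18-ps1 lies within Ctla4 and the predicted gene Gm37039 within Icos, both on the same strand as their host, and neither shares exon bases with it.

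Promoters are shown for Ctla4 and Havcr2, the pair with the largest fold changes between trNK-V and trNK-T, and for Cd96, which had the smallest difference of the genes tested there. Each is the 250 bases before the RefSeq transcription start (GRCm38.p6), written 5′ to 3′ on the strand of the gene, and capitals mark matches to 5 motifs. All motifs were searched on both strands. The letters used were TTCNNNGAA for STAT factors, TGANTCA for the AP-1 factors, TGTGGT for the RUNX factors, AGGTGTNA for T-box factors and TATAAA for the TATA box.
Ctla4, chr1:60908775-60909024, plus strand: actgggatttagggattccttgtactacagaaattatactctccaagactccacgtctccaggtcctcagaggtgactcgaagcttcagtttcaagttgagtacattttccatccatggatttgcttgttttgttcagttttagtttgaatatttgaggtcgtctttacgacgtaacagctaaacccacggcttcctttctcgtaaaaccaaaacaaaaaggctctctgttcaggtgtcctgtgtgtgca
Havcr2, chr11:46454681-46454930, plus strand: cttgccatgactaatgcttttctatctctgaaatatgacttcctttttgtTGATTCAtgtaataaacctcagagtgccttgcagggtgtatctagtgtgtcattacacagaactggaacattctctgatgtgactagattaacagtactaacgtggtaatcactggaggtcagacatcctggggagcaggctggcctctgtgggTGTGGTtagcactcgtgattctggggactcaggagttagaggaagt
Cd96, chr16:46120249-46120498, minus strand: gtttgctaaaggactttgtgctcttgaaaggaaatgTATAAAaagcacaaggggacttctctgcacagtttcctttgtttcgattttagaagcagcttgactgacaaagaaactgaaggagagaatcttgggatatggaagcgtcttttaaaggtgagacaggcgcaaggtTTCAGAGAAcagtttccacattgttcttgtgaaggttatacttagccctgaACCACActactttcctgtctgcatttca
The RefSeq start of Ctla4 lies inside the longer gene model of the count files. In the Ctla4 window none of the 5 motifs was found. The Havcr2 window held TGATTCA 200 bases and TGTGGT 46 bases before the start. The Cd96 window held TATAAA 214 bases, TTCAGAGAA 79 bases and, on the other strand, the RUNX letters 28 bases before the start. Over 32851 promoter windows of the same length, the share with a match was 7.02% for the STAT motif, 6.75% for AP-1, 14% for RUNX, 2.68% for T-box and 12.4% for the TATA box. These matches describe the letters only, and the search says nothing of the factors.

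Total counts ran from 11862089 to 29537298 per library in the gestation, subset and inhibitor experiments and from 28541369 to 66468883 in the time course. Levels are given as RPKM, reads per kilobase of exon scaled to the total count of the library, which allows levels of different genes to be set side by side. The NK genes Ncr1 (46.8 to 1030 RPKM) and Klrb1c (95.5 to 577 RPKM) were present in all 34 libraries, as was Itga1, which encodes CD49a (1.64 to 30.6 RPKM). Cxcr6, whose product the gate of the gestation and subset experiments excludes, was not absent. It reached 16.2 RPKM in the gestation experiment (gd6.5 replicate 1), 33.8 in the subsets (trNK-V replicate 2) and 106 in the time course (72 h with IL-21). Cd4 reached at most 0.0542 RPKM and Foxp3 at most 0.0176 RPKM, while Cd3e reached 6.42 RPKM. Several libraries stood apart. The virgin replicates differed widely from each other for Ctla4, Klrg1, Pdcd1 and Havcr2, as given below. The 6 terminal-stage genes, which include Tnfrsf9 (4-1BB) and Cd55, summed to 836 RPKM in replicate 1 of the virgin mice against 16020 in replicate 2, where the gd6.5 and gd8.5 libraries were between 13750 and 20070, and the file of virgin replicate 1 lists 55573 genes against 54446 for replicate 2. In addition, the erythroid genes summed to 844 RPKM in gd8.5 replicate 2, and the plasma cell genes summed to 1719 RPKM in trNK-D replicate 2. In bulk samples, fewer cells that express a gene and less RNA per cell cannot be told apart.

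The 9 genes spanned a wide range of levels. Cd96 was the highest by its median over the 34 libraries (208 RPKM, from 124.5 to 668), followed by Tigit (134 RPKM, from 15.6 to 251) and Klrg1 (131 RPKM, from 28.2 to 910). Icos (median 39.5 RPKM, from 12.2 to 142) and Cd226 (median 26.3 RPKM, from 3.1 to 87.6) were intermediate. These 5 genes had counts in every library. The order by medians pools cultured and uncultured libraries. In every group of the gestation and subset experiments the mean of Klrg1 was above that of Cd96, with 397 against 186.5 RPKM at gd8.5. In the gestation groups the mean of Ctla4 was above that of Icos, with 38.1 against 25.1 RPKM at gd8.5. Ctla4 (median 5.45 RPKM, from 0 to 80.0) was at 0 counts in 11 libraries, Havcr2 (median 1.57 RPKM, from 0 to 84.8) in 3 and Pdcd1 (median 0.0213 RPKM, from 0 to 94.8) in 17. Lag3 had the narrowest range, from 0 to 4.63 RPKM with a median of 1.18, and never reached 10 RPKM. Levels of different experiments were not tested against each other, because experiment, kit and culture cannot be told apart.

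**Figure D1:**
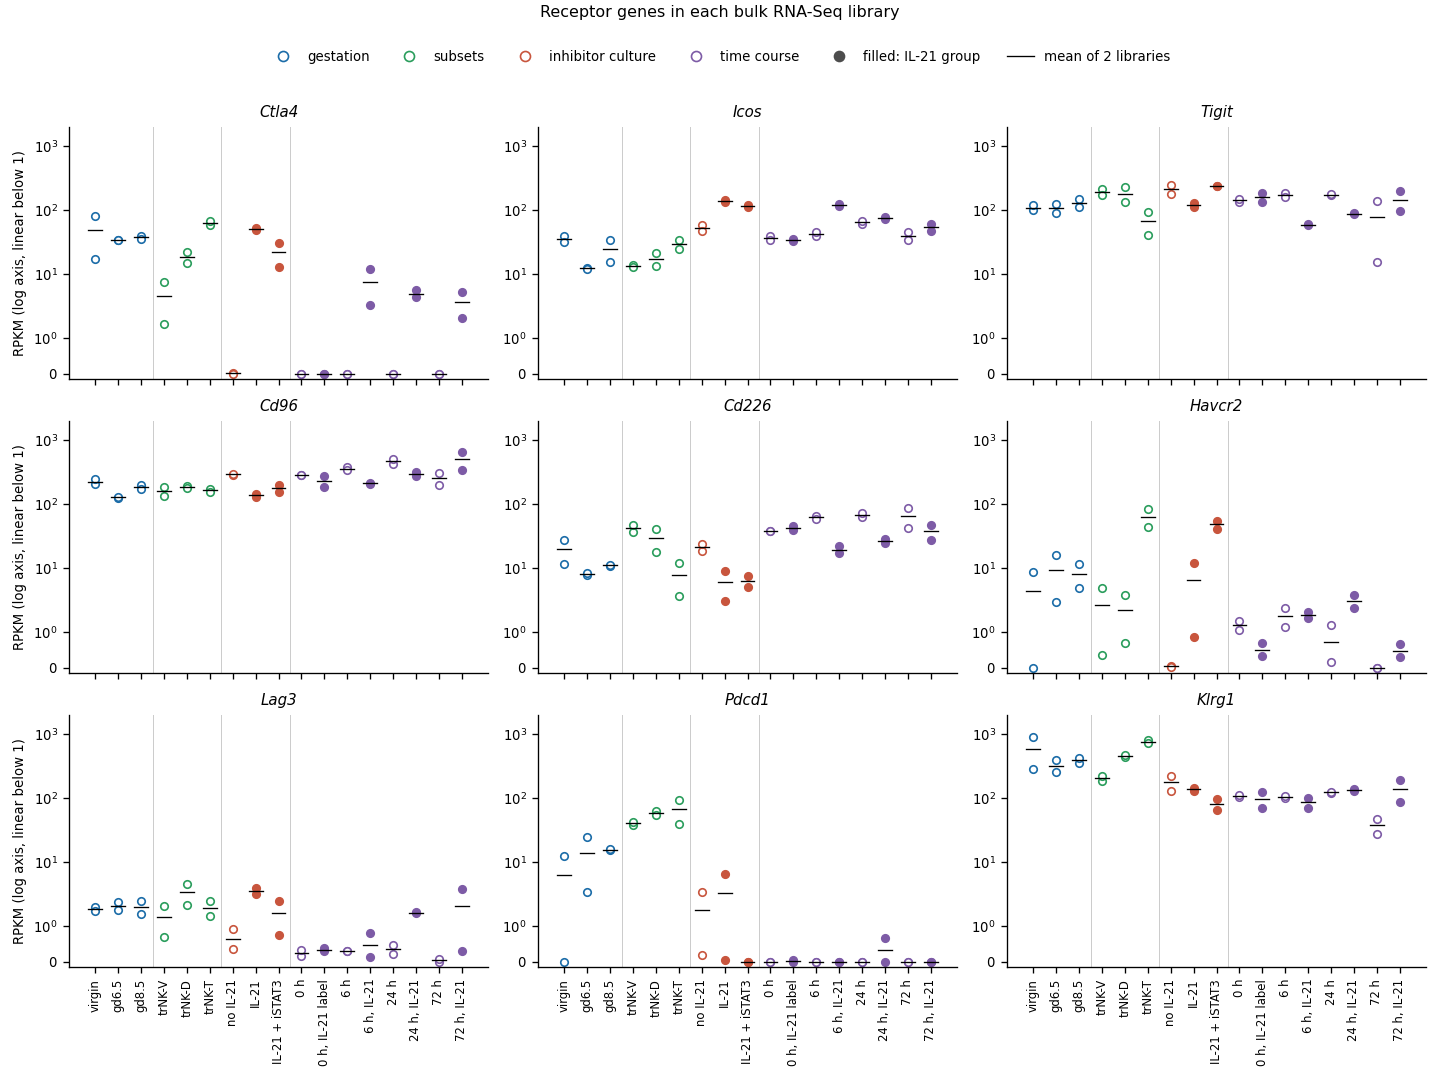
RPKM of the 9 receptor genes in each of the 34 bulk libraries by group (vertical axis logarithmic, linear below 1), with 1 point per library, a bar at the mean of 2 libraries, and filled points for groups labelled with IL-21. Cd96, Tigit, Klrg1, Icos and Cd226 had counts throughout, whereas Ctla4 was at 0 in 11 libraries, Pdcd1 in 17 and Havcr2 in 3.

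The subset experiment asks how the receptors differ between trNK-V, trNK-D and trNK-T cells sorted from the same stage of pregnancy. Ctla4, Icos, Havcr2 and Klrg1 were higher in trNK-T than in trNK-V, Tigit and Cd226 were lower, and Cd96 and Pdcd1 did not pass the test. Genes were tested with edgeR's quasi-likelihood test where RPKM exceeded 10 in both libraries of any group, and genes were called at a fold change over 2 with a Benjamini-Hochberg adjusted p under 0.05. Of the 9 genes, 8 passed that filter (Lag3 did not), and 6 were called, with 4 higher and 2 lower, where the background was 21.2% of the 4681 genes tested, 8.05% higher and 13.1% lower. The median log2 difference over these 4681 genes was -0.0151, close to 0. Of these genes, 1709 had both trNK-T libraries above both trNK-V libraries and 1793 had both below. Groups of 2 libraries without overlap were thus common. Such genes numbered 1212 higher and 1286 lower between trNK-D and trNK-V, and 1376 and 1380 between trNK-T and trNK-D. Under the filterByExpr rule of edgeR, which keeps genes by counts and let all 9 pass, Ctla4 and Klrg1 were called against 6.75% of genes, and Icos, Havcr2, Cd226 and Tigit had edgeR adjusted p values of 0.0545, 0.0678, 0.0716 and 0.0859.

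Ctla4 was at 1.64 and 7.43 RPKM in the trNK-V libraries, 14.7 and 22.5 in trNK-D, and 57.6 and 67.3 in trNK-T. The 3 groups did not overlap, and trNK-D lay between the others. Ctla4 rose 13.8-fold from trNK-V to trNK-T (log2 fold change 3.78, standard error 0.68, edgeR adjusted p = 0.00946), and this call held under all 11 alternatives, from 3.06 to 5.26 on the log2 scale. Ctla4 passed the RPKM filter only through trNK-D and trNK-T, where it was higher, though it was called under filterByExpr as well. Icos, its neighbour on chromosome 1, was at 14.1 and 13.1 RPKM in trNK-V, 13.2 and 21.3 in trNK-D and 34.3 and 24.3 in trNK-T. Its trNK-T libraries were above the other 4, while trNK-V and trNK-D overlapped. Icos rose 2.16-fold from trNK-V to trNK-T (log2 fold change 1.11, standard error 0.30, edgeR adjusted p = 0.0328). Without trNK-V replicate 1 the edgeR adjusted p for Icos was 0.094, without trNK-V replicate 2 it was 0.124, without trNK-T replicate 1 it was 0.145 (log2 fold change 0.85), and without trNK-T replicate 2 it was 0.0699. Pdcd1, the inhibitory receptor gene of the same family, was at 38.4 and 42.5 RPKM in trNK-V, 64.4 and 54.4 in trNK-D and 94.8 and 39.4 in trNK-T. The trNK-T libraries of Pdcd1 were the highest and the second lowest of the 6, and the log2 difference between trNK-T and trNK-V was 0.73 (standard error 0.38, edgeR adjusted p = 0.171). Without trNK-T replicate 2 that difference was called, at 1.23 on the log2 scale with an edgeR adjusted p of 0.0328, and without trNK-T replicate 1 it was -0.0235.

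Among the receptors for nectin-type ligands, the inhibitory Tigit and the activating Cd226 were both lowest in trNK-T. Tigit was at 214 and 175 RPKM in trNK-V, 227 and 133 in trNK-D and 92.6 and 40.8 in trNK-T, so that the trNK-T libraries lay below all others. Tigit fell 2.91-fold from trNK-V to trNK-T (log2 fold change -1.54, standard error 0.42, edgeR adjusted p = 0.0316). Cd226 (mm10 chr18:89197431-89270201, plus strand) was at 36.5 and 48.1 RPKM in trNK-V, 40.9 and 17.8 in trNK-D and 12.2 and 3.68 in trNK-T. Again the trNK-T libraries were the lowest, and trNK-D replicate 1 lay within the range of trNK-V. Cd226 fell 5.27-fold from trNK-V to trNK-T (log2 fold change -2.40, standard error 0.62, edgeR adjusted p = 0.0279). It passed the RPKM filter only through trNK-V and trNK-D, where it was higher, so its entry into the test was not independent of this difference. Both calls were lost without trNK-V replicate 1 (edgeR adjusted p = 0.108 for Tigit and 0.0651 for Cd226), without trNK-V replicate 2 (0.0882 and 0.108) and without trNK-T replicate 2 (0.111 and 0.0956), and their values ran from -2.24 to -1.06 for Tigit and from -3.50 to -1.78 for Cd226. Cd96, which recognises the same kind of ligand, was at 132 and 187 RPKM in trNK-V, 193 and 182 in trNK-D and 175 and 157 in trNK-T. The 3 groups of Cd96 overlapped or adjoined, with a log2 difference of 0.05 between trNK-T and trNK-V (standard error 0.20, edgeR adjusted p = 0.849).

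Havcr2 had the largest fold change of the genes tested here in this comparison. It was at 0.357 and 4.87 RPKM in trNK-V, 0.707 and 3.79 in trNK-D and 43.8 and 84.8 in trNK-T. Both trNK-T libraries were above the other 4, and the libraries of trNK-V and trNK-D spread over the same low range. Havcr2 rose 24.6-fold from trNK-V to trNK-T (log2 fold change 4.62, standard error 1.24, edgeR adjusted p = 0.0308). It passed the RPKM filter only through trNK-T, the group where it was high, so its presence among the tested genes was not independent of this difference, and under filterByExpr it was not called (edgeR adjusted p = 0.0678). The call was lost without trNK-V replicate 1 (edgeR adjusted p = 0.0664), trNK-T replicate 1 (0.0544) or trNK-T replicate 2 (0.119), and without trNK-V replicate 2 the log2 fold change was 7.49. Klrg1 was at 185 and 225 RPKM in trNK-V, 449 and 483 in trNK-D and 813 and 739 in trNK-T. Its 3 groups did not overlap, and it rose 3.79-fold from trNK-V to trNK-T (log2 fold change 1.92, standard error 0.17, edgeR adjusted p = 0.00181), a call that held under all 11 alternatives. Lag3 stayed between 0.707 and 4.63 RPKM in the 6 libraries and was not tested.

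**Figure D2:**
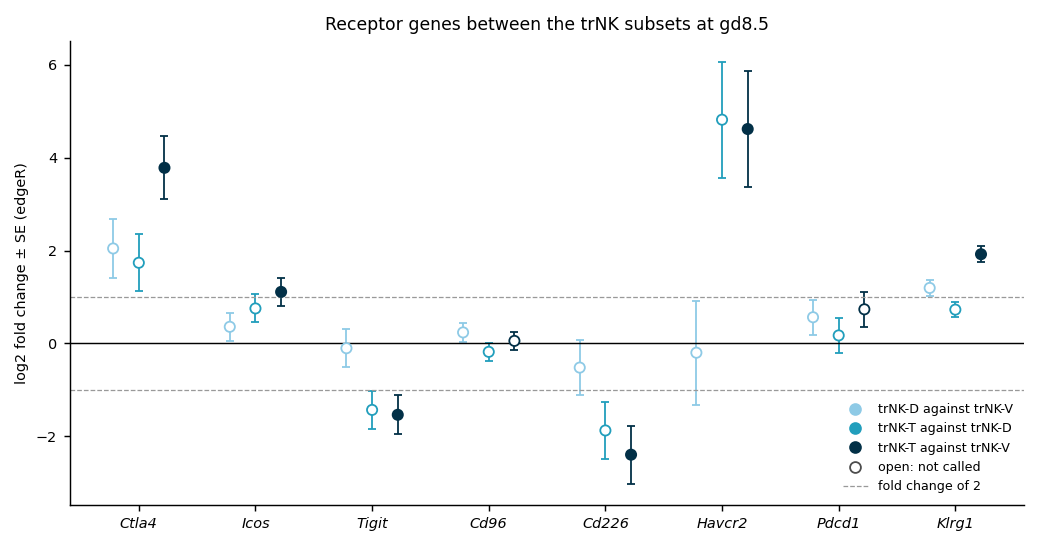
Log2 fold changes of the 8 tested receptor genes between the sorted subsets at gd8.5 (points, edgeR; bars, standard error), filled where called and open where not, with dashed lines at a fold change of 2. From trNK-V to trNK-T, Ctla4, Icos, Havcr2 and Klrg1 lie above 0 and Tigit and Cd226 below it, while no comparison with trNK-D was called.

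Under the RPKM filter, edgeR called none of the 8 genes in either comparison with trNK-D. Between trNK-D and trNK-V, where 0.32% of all genes tested were called, 2 genes had an unadjusted p below 0.05, Ctla4 (log2 difference 2.04) and Klrg1 (1.19), and both were called by DESeq2 (3.99% of all genes) and by edgeR without a filter (1.8%). Between trNK-T and trNK-D, where 1.75% were called, 6 genes had an unadjusted p below 0.05 and 4 of them, Ctla4, Tigit, Cd226 and Havcr2, were called by DESeq2 (6.96% of all genes) and by edgeR without a filter (2.24%), with Havcr2 at 4.82 and Cd226 at -1.88 on the log2 scale. Here and below, counts at an unadjusted p below 0.05 are a description, since the shares beside them follow the stricter rule of a call. Among the 6 subset libraries, the dividing-cell genes summed to 116 and 123 RPKM in trNK-V, 64.0 to 289 in trNK-D and 185 to 301 in trNK-T. That sum was thus higher in trNK-T than in trNK-V, while the 9 T cell genes summed to 1775 and 1853 RPKM in trNK-V and 1138 and 1048 in trNK-T and the 7 gamma delta T cell genes to 205 and 161 in trNK-V and 28.3 and 40.5 in trNK-T, lower without overlap as for Tigit and Cd226. Cd3e, a defining T cell gene, was at 0 and 1.26 RPKM in trNK-V and 0 in both trNK-T libraries. The NK lists were lower in trNK-T as well, with trNK cell genes at 1379 and 1388 RPKM in trNK-V and 799 and 644 in trNK-T, cNK cell genes at 1401 and 1412 against 790 and 634, and Klrb1c at 288 and 367 against 107 and 95.5. These lists are not separate, since both hold Ncr1, Klrb1c and Eomes. Ncr1 made most of both sums, at 1022 and 960 RPKM in trNK-V and 636.5 and 494 in trNK-T. The neutrophil or monocyte genes summed to 327 and 332 RPKM against 297 and 146. The 4 mast cell genes were low but rose without overlap, as Ctla4 and Klrg1 did. They summed to 0.131 to 1.605 RPKM in trNK-V, 1.74 to 6.91 in trNK-D and 7.53 to 9.855 in trNK-T. The part of these genes in the receptor differences was not tested. Plasma cell genes set trNK-D replicate 2 apart. Without that library the log2 differences of Icos (-0.045) and Tigit (0.22) between trNK-D and trNK-V changed sign. The part of the plasma cell genes in the receptor values of trNK-D was not tested.

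The gestation experiment asks how trNK cells as a whole change from the virgin uterus to gd6.5 and gd8.5. Icos was lower at gd6.5 than in virgin mice, and under the RPKM filter edgeR called no other receptor gene in the 3 comparisons with all libraries. Of the 9 genes 7 passed the filter, Havcr2 and Lag3 did not, and 1 of the 7 was called between gd6.5 and virgin, where the background was 6.22% of 4503 genes. The share called was 0.378% between gd8.5 and virgin and 0% between gd8.5 and gd6.5. Groups without overlap were common among the 4503 genes, with 1641 higher and 1081 lower at gd6.5 than in virgin mice. Between gd8.5 and gd6.5 such genes numbered 1482 higher and 1611 lower.

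Icos was at 39.3 and 32.1 RPKM in virgin mice, 12.4 and 12.2 at gd6.5, then 34.8 and 15.5 at gd8.5. Both gd6.5 libraries were below the other 4, and the gd8.5 libraries were far apart from each other. Icos fell 3.07-fold from virgin to gd6.5 (log2 fold change -1.62, standard error 0.38, edgeR adjusted p = 0.0484). Without virgin replicate 2 the value was -1.76 (edgeR adjusted p = 0.0188) and without virgin replicate 1 it was -1.46 (0.0462), but without gd6.5 replicate 1 or gd6.5 replicate 2 the call was lost (0.293 and 0.193). Under filterByExpr, where 0.0356% of genes were called, the edgeR adjusted p of Icos was 0.121, and with the virgin and gd6.5 libraries alone in the fit it was 0.0796. Several gene lists moved with Icos. The trNK cell genes summed to 1222 to 1240 RPKM in virgin mice, 710 to 741 at gd6.5 and 922 to 933 at gd8.5, and the 9 T cell genes to 1633 to 1649, 1061 to 1195 and 1499 to 1507. Both sums were lowest at gd6.5 without overlap, as were Icos and Cd96, while the dividing-cell genes were highest there, at 245 to 331 RPKM against 59.9 to 206 in virgin mice and 177 to 193 at gd8.5. Cd3e had no counts in either virgin library and reached 0.936 RPKM in 1 library of gd6.5 and 0.714 RPKM in 1 of gd8.5. The part of these lists in the receptor differences was not tested. Ctla4 was at 17.5 and 80.0 RPKM in virgin mice, 33.8 and 33.6 at gd6.5, then 40.2 and 36.0 at gd8.5, so the virgin libraries lay on either side of all others. The log2 difference of Ctla4 between gd6.5 and virgin was -0.61 (standard error 0.61, edgeR adjusted p = 0.521), and it was 0.86 without virgin replicate 2 (edgeR adjusted p = 0.0189) and -1.33 without virgin replicate 1 (edgeR adjusted p = 0.00906), where only the latter passed the fold change of 2. Between gd8.5 and virgin the difference of Ctla4 was called in opposite directions, higher by 1.05 without virgin replicate 2 (edgeR adjusted p = 0.0173) and lower without virgin replicate 1 (-1.14, edgeR adjusted p = 0.0239). Klrg1 was at 284 and 910 RPKM in virgin mice, 392 and 255 at gd6.5, then 361 and 434 at gd8.5, so virgin replicate 2 was above all others and gd6.5 replicate 2 was the lowest. Its log2 difference between gd6.5 and virgin was -0.96 (edgeR adjusted p = 0.246), 0.11 without virgin replicate 2 (edgeR adjusted p = 0.783) and -1.57 without virgin replicate 1 (edgeR adjusted p = 0.015).

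Pdcd1 was at 0 and 12.8 RPKM in virgin mice, 24.8 and 3.42 at gd6.5, then 15.7 and 15.9 at gd8.5. The virgin library with 0 counts was replicate 1, where 3 counts would have given 0.0677 RPKM, and in no comparison of the gestation libraries did Pdcd1 pass the test with all libraries. Pdcd1 passed the RPKM filter only through gd8.5, where its mean was highest, so its entry into the tests was not independent of these differences. Without virgin replicate 2 both comparisons with virgin called Pdcd1 higher, against a lone virgin library at 0, so that no fold change can be given. Havcr2, not tested here, was likewise at 0 in virgin replicate 1 and at 8.79 RPKM in virgin replicate 2, with 16 and 2.99 at gd6.5, then 4.89 and 11.5 at gd8.5.

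Cd96 was at 205 and 246 RPKM in virgin mice, 124.5 and 132 at gd6.5, then 201 and 172 at gd8.5, lowest at gd6.5 with no overlap. Its difference of -0.90 on the log2 scale (standard error 0.17) had an edgeR adjusted p of 0.0331 but stayed under the fold change of 2, and without virgin replicate 1 it was -1.02 (edgeR adjusted p = 0.013). Cd226 was at 11.7 and 27.9 RPKM in virgin mice, 7.75 and 8.49 at gd6.5, then 10.9 and 11.4 at gd8.5, and its difference of -1.37 between gd6.5 and virgin did not pass the test (edgeR adjusted p = 0.0848). It was called by DESeq2 (-1.38, DESeq2 adjusted p = 0.0131) and by edgeR without a filter (-1.34, edgeR adjusted p = 0.00758). Cd226 passed the RPKM filter only through the virgin and gd8.5 groups, where it was higher. Without virgin replicate 1 Cd226 was called at -1.86 (edgeR adjusted p = 0.0107). Tigit was at 99.8 and 119 RPKM in virgin mice, 90.7 and 125 at gd6.5, then 111 and 149 at gd8.5, with overlap of all groups and a log2 difference of -0.10 between gd6.5 and virgin (standard error 0.25). Lag3 lay between 1.58 and 2.45 RPKM in all 6 libraries. Between gd8.5 and gd6.5, 2 genes had an unadjusted p below 0.05, Icos at 1.04 and Cd96 at 0.55 on the log2 scale, and none was called by DESeq2 or, under the RPKM filter, by edgeR, which called Icos without a filter (1.03, edgeR adjusted p = 0.0135). Between gd8.5 and virgin no gene had an unadjusted p below 0.05 and DESeq2 likewise called none. In gd8.5 replicate 2, the library with the highest erythroid sum, Tigit and Lag3 were at their highest of the 6 libraries, and the part of that sum in their levels was not tested.

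The inhibitor culture asks which genes IL-21 moves in cultured trNK-V cells and how these genes stand when Stattic is added to IL-21. No group held Stattic without IL-21. An effect of Stattic itself and a loss of the IL-21 signal through STAT3 therefore cannot be told apart. Ctla4 was nearly absent without IL-21 and abundant with it, with and without the inhibitor, and Icos and Havcr2 were higher with IL-21 and the inhibitor than without IL-21. The T cell gene Cd3e was at 0.93 and 1.09 RPKM without IL-21, 0.0402 and 6.42 with IL-21 and 6.27 and 2.53 with IL-21 and the inhibitor, where it too was higher than without IL-21 with no overlap. The sum of the 9 T cell genes went the other way, at 1291 to 1438 RPKM without IL-21, 1007 to 1154 with IL-21 and 600 to 627 with the inhibitor. The part of these T cell genes in the receptor values was not tested. Of the 9 receptor genes 7 were tested (Pdcd1 and Lag3 did not pass the filter). Groups without overlap were common among the 4158 genes tested, with 446 higher and 1286 lower with IL-21 than without. Such genes numbered 684 and 1646 for IL-21 with inhibitor against no IL-21, and 833 and 1203 against IL-21 alone. Between IL-21 and no IL-21, 1 of the 7 was called against a background of 0.289% of 4158 genes. Between IL-21 with inhibitor and no IL-21, 3 of the 7 were called against 4.74%, and under filterByExpr Ctla4 alone was called, against 0.154%. Between IL-21 with inhibitor and IL-21 alone none was called by edgeR, against 2.96%, where Tigit and Havcr2 had an unadjusted p below 0.05, DESeq2 called both (10.7% of all genes) and edgeR without a filter called Havcr2 (2.17%).

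Ctla4 was at 0.023 and 0 RPKM without IL-21, which is 1 read in all, at 52.5 and 49.6 RPKM with IL-21, and at 31.0 and 12.8 RPKM with IL-21 and Stattic. All 4 libraries with IL-21 were far above the pair without it, and the pair with Stattic lay below the pair with IL-21 alone. Per counted read Ctla4 was 4390-fold higher with IL-21 (counting interval 787 to 173000, which covers counting error only) and 2050-fold higher with IL-21 and Stattic (368 to 81100). The edgeR adjusted p was 0.0062 and 0.00284. Under filterByExpr the first of these was 0.0543. With Stattic, Ctla4 was 2.18-fold below IL-21 alone, a log2 difference of -1.12 that did not pass the test (standard error 0.51, edgeR adjusted p = 0.281).

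Icos was at 58.0 and 47.2 RPKM without IL-21, 142 and 133 with IL-21 and 113 and 119 with IL-21 and Stattic. Again both IL-21 groups were above the group without IL-21. The log2 difference of Icos was 1.57 for IL-21 (standard error 0.29, edgeR adjusted p = 0.0823, not called) and 1.43 for IL-21 with Stattic (standard error 0.29, edgeR adjusted p = 0.0343, called). DESeq2 (1.60, DESeq2 adjusted p = 4.21e-05) and edgeR without a filter (1.61, edgeR adjusted p = 0.0157) called the former. Leaving out trNK_ctrl replicate 1 or 2 or the Stattic replicate 1 or 2 ended the call for IL-21 with Stattic, with edgeR adjusted p values of 0.156, 0.192, 0.0984 and 0.124. Between IL-21 with and without Stattic, Icos differed by -0.15 on the log2 scale (standard error 0.28, edgeR adjusted p = 0.842).

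Havcr2 was highest with Stattic. It was at 0.059 and 0.0202 RPKM without IL-21, 12.3 and 0.872 with IL-21 and 41.8 and 55.1 with IL-21 and Stattic. The groups did not overlap, but the pair with IL-21 alone was wide apart. From no IL-21, where it had 4 reads in all, to IL-21 with Stattic, Havcr2 rose 1180-fold per counted read (counting interval 461 to 4340, edgeR adjusted p = 0.0117), and the call was lost without trNK_ctrl replicate 1 (edgeR adjusted p = 0.0637) or replicate 2 (0.065). In this culture, Havcr2 passed the RPKM filter only through the group with Stattic and Ctla4 only through the groups with IL-21. Cd226 passed it only through the group without IL-21. These were the groups where each gene was high. Under filterByExpr the edgeR adjusted p of Havcr2 was 0.0764. For IL-21 alone against no IL-21 the edgeR adjusted p of Havcr2 was 0.0863, while DESeq2 (DESeq2 adjusted p = 1.49e-08) and edgeR without a filter (edgeR adjusted p = 9.21e-23) called it. For Stattic added to IL-21 the edgeR adjusted p was 0.172 with a log2 difference of 2.94. Leaving out IL-21 replicate 2 in the first comparison gave a call at 8.42 (edgeR adjusted p = 0.00243), and leaving out IL-21 replicate 1 in the second gave a call at 5.96 (edgeR adjusted p = 0.0187). Pdcd1 was at 0.194 and 3.44 RPKM without IL-21, 0.0425 and 6.57 with IL-21, and had 0 counts in both libraries with Stattic. With 3 counts per library as the floor, Pdcd1 was at least 49.5-fold lower with Stattic than with IL-21 alone, with no test. This bound rested on IL-21 replicate 2, without which the level with IL-21 was under the floor. It was 98.3-fold without IL-21 replicate 1, and the 2 libraries of each other group were themselves far apart.

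Under the RPKM filter, edgeR called none of the remaining receptors in this culture with all libraries. Tigit was at 180 and 251 RPKM without IL-21, 128 and 111 with IL-21 and 235 and 241 with Stattic. The pair with IL-21 alone was the lowest, and Tigit with Stattic was 2.13-fold above IL-21 alone (log2 difference 1.09, standard error 0.32, edgeR adjusted p = 0.127), a difference that DESeq2 called (1.08, DESeq2 adjusted p = 0.0242). Cd96 was at 288 and 300 RPKM without IL-21, 143 and 131 with IL-21 and 202 and 158 with Stattic, lower in both IL-21 groups without passing the test (log2 difference for IL-21 -0.91, edgeR adjusted p = 0.301). Cd226 was at 18.6 and 24.0 RPKM without IL-21, 3.10 and 8.90 with IL-21 and 5.07 and 7.68 with Stattic, with a log2 difference for IL-21 of -1.67 (standard error 0.59, edgeR adjusted p = 0.39). Klrg1 was at 131 and 226 RPKM without IL-21, 148 and 132 with IL-21 and 66.5 and 98.0 with Stattic, where the Stattic pair was the lowest and the edgeR adjusted p against IL-21 alone was 0.398. Lag3 was at 0.913 and 0.364 RPKM without IL-21, 3.19 and 3.94 with IL-21 and 0.754 and 2.45 with Stattic. The dividing-cell genes summed to 121 to 185 RPKM without IL-21, 71.5 to 119 with IL-21 and 31.4 to 38.4 with Stattic. The trNK cell genes summed to 966 to 1098 RPKM without IL-21, 313 to 367 with IL-21 and 228 to 234 with Stattic. Of the genes that define the sort, Ncr1 was at 473 and 358 RPKM without IL-21, 146 and 156 with IL-21 and 46.8 and 77.3 with Stattic, and Klrb1c at 552 and 509, 134 and 154, and 118 and 121. Both were highest without IL-21 with no overlap, as were Cd96 and Cd226. The part of the dividing-cell and NK genes in the receptor values of this culture was not tested.

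**Figure D3:**
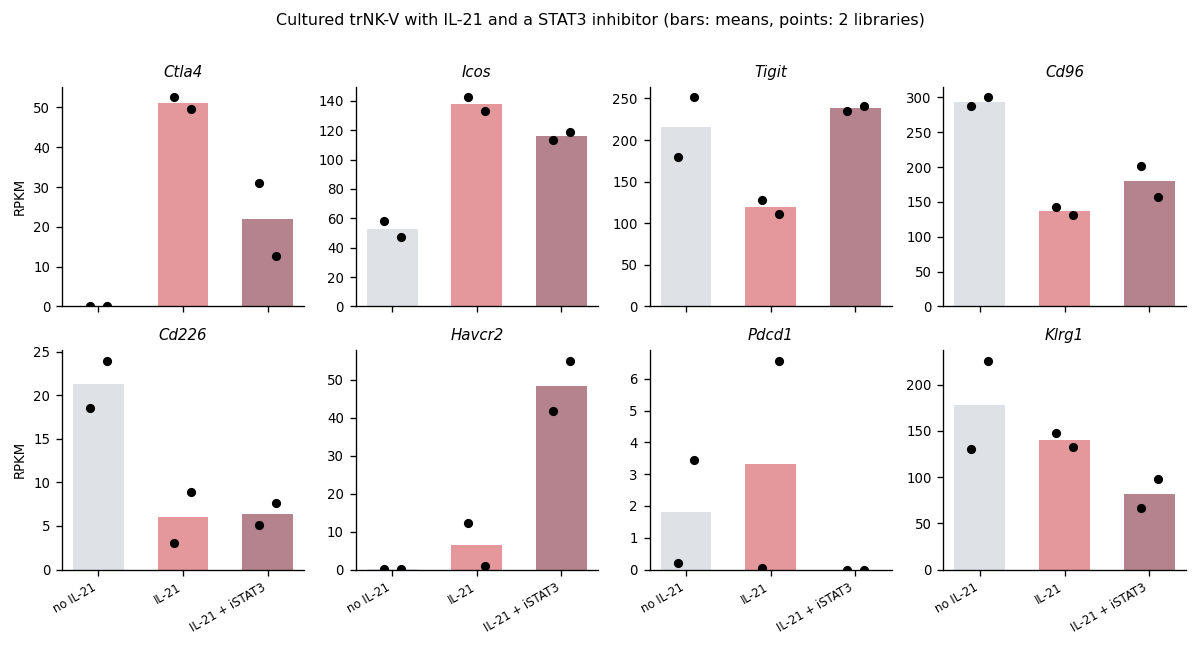
RPKM of 8 receptor genes in the inhibitor culture, with bars at the mean of 2 libraries, points for the libraries, for 3 groups, no IL-21, IL-21, and IL-21 plus the STAT3 inhibitor. Ctla4 had 1 read without IL-21 and was above 12 RPKM in all 4 libraries with it, Havcr2 was highest with the inhibitor, and Pdcd1 was at 0 there.

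The time course asks how early these genes follow IL-21. Icos and Cd226 moved in opposite directions by 6 h, Cd226 was still lower at 24 h, Klrg1 was higher at 72 h, and Ctla4 had counts only in the 6 libraries cultured with IL-21. The filter kept 5 of the 9 genes, Icos, Tigit, Cd96, Cd226 and Klrg1. With IL-21, 2 of these 5 were called at 6 h (background 1.97% of 3502 genes), 1 at 24 h (1.66%), 1 at 72 h (8.08%) and 1 on average over the 3 times (6.25%). Of the 3502 genes, 1060 were higher and 1004 lower with IL-21 without overlap of the libraries at 6 h. These numbers were 1393 and 961 at 24 h, 756 and 582 at 72 h, and 471 and 689 for the IL-21 label at 0 h. At 0 h the libraries labelled IL-21 had spent no time in the cytokine. There edgeR called 0 of the 5 genes and 0% of all genes, no receptor gene had an unadjusted p below 0.05, and DESeq2 called none of the 5.

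Ctla4 had 0 counts in all 8 libraries without IL-21 and in both 0 h libraries labelled IL-21. With IL-21 it was at 3.28 and 12 RPKM at 6 h, 5.58 and 4.32 at 24 h and 2.03 and 5.32 at 72 h. The values of the 3 times overlapped. With 3 counts per library as the floor, Ctla4 was at least 378-fold higher with IL-21 at 6 h, at least 137-fold higher at 24 h and at least 96.8-fold higher at 72 h. Without the IL-21 replicate 1 or 2 of 6 h the first bound was 594-fold or 162-fold, and without the IL-21 replicate 2 of 72 h the last was 53.4-fold. Ctla4 did not pass the RPKM filter. With filterByExpr it was called at 72 h (edgeR adjusted p = 0.0194) and on average over the 3 times (0.00232), but not at 6 h (0.123) or 24 h (0.174), against backgrounds of 5.07%, 2.78%, 0.0672% and 0.00672% of genes under that filter.

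Icos was at 39.4 and 46.1 RPKM without and 116 and 124 with IL-21 at 6 h, at 61.5 and 68.0 against 72.3 and 78.9 at 24 h, and at 44.8 and 34.3 against 61.4 and 47.5 at 72 h. At each time the IL-21 libraries were above those without, and the gap was widest at 6 h. Icos rose 2.73-fold at 6 h (log2 fold change 1.45, standard error 0.18, edgeR adjusted p = 0.00363), and the log2 difference was 0.12 at 24 h (edgeR adjusted p = 0.857) and 0.39 at 72 h (0.211). The 6 h call was lost without the IL-15 replicate 1 (edgeR adjusted p = 0.0583) or the IL-21 replicate 1 (0.0559) of that time and under filterByExpr (0.051). The effect at 24 h was 1.32 below that at 6 h on the log2 scale (standard error 0.26), with an unadjusted p below 0.05 and an edgeR adjusted p of 1 over all genes, while DESeq2 called it. Averaged over the 3 times Icos was 1.57-fold higher (edgeR adjusted p = 0.00207), under the fold change of 2.

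Cd226 was at 65.7 and 58.5 RPKM without and 21.9 and 17.1 with IL-21 at 6 h, at 62.2 and 72.1 against 29.1 and 25 at 24 h, and at 87.6 and 42.2 against 47.4 and 27.6 at 72 h. The groups were well apart at 6 and 24 h and overlapped at 72 h. Cd226 fell 3.25-fold at 6 h (log2 fold change -1.70, standard error 0.28, edgeR adjusted p = 0.0106) and 2.66-fold at 24 h (-1.41, standard error 0.28, edgeR adjusted p = 0.0304), and the log2 difference at 72 h was -0.87 (edgeR adjusted p = 0.0714). On average over the 3 times it fell 2.51-fold (log2 fold change -1.33, standard error 0.16, edgeR adjusted p = 0.000309), and this call held under all 19 alternatives, from -1.44 to -1.17. Leaving out any 1 of the 4 libraries at 6 h ended the 6 h call (edgeR adjusted p from 0.0689 to 0.149), and any 1 of the 4 at 24 h ended the 24 h call (from 0.14 to 0.325), and under filterByExpr the edgeR adjusted p was 0.0798 at 6 h and 0.179 at 24 h. The 24 h call was also lost without a filter (-1.42, edgeR adjusted p = 0.194). Without the 72 h IL-15 replicate 2, Cd226 was called at 72 h as well, at -1.23. The trNK cell genes summed to 1252 and 1315 RPKM without and 577 and 617 with IL-21 at 6 h, to 1396 and 1503 against 866 and 898 at 24 h, and to 1523 and 1581 against 1058 and 1370 at 72 h. Klrb1c, which is part of that sum and encodes the NK1.1 antigen, was at 320 and 337 against 115 and 117 RPKM at 6 h, 454 and 429 against 199 and 185 at 24 h, and 577 and 519 against 406 and 366 at 72 h. Both were lower with IL-21 without overlap at all 3 times, as Cd226 was at 6 and 24 h, and their part in the receptor differences was not tested.

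Klrg1 was at 102 and 109 RPKM without and 70.3 and 103 with IL-21 at 6 h, at 122 and 127 against 139 and 129 at 24 h, and at 28.2 and 47.5 against 193 and 88.7 at 72 h. The groups overlapped or nearly met at 6 and 24 h and parted at 72 h, where the libraries without IL-21 were the lowest of the time course. Klrg1 rose 3.30-fold with IL-21 at 72 h (log2 fold change 1.72, standard error 0.36, edgeR adjusted p = 0.0133), and between 24 h and 72 h without IL-21 it fell 2.53-fold (log2 fold change -1.34, standard error 0.35, edgeR adjusted p = 0.0256). In that latter comparison 1 of the 5 genes was called against a background of 14.8%. Without the 72 h IL-21 replicate 1 the first call was lost (1.34, edgeR adjusted p = 0.0629), and the second was lost without the 24 h replicate 1 (0.0894) or 2 (0.11) or the 72 h replicate 1 (-0.93, edgeR adjusted p = 0.0621). With only the 4 libraries of 72 h in the fit the edgeR adjusted p of the first was 0.704, and with only the 24 h and 72 h libraries without IL-21 that of the second was 0.158. At 72 h the dividing-cell genes summed to 0.549 and 8.54 RPKM without IL-21 and 59.9 and 91.1 with it, against 587 to 741 at 6 and 24 h. The 72 h libraries were thus low in these genes, most of all without IL-21, and the part of this in the Klrg1 difference was not tested.

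**Figure D4:**
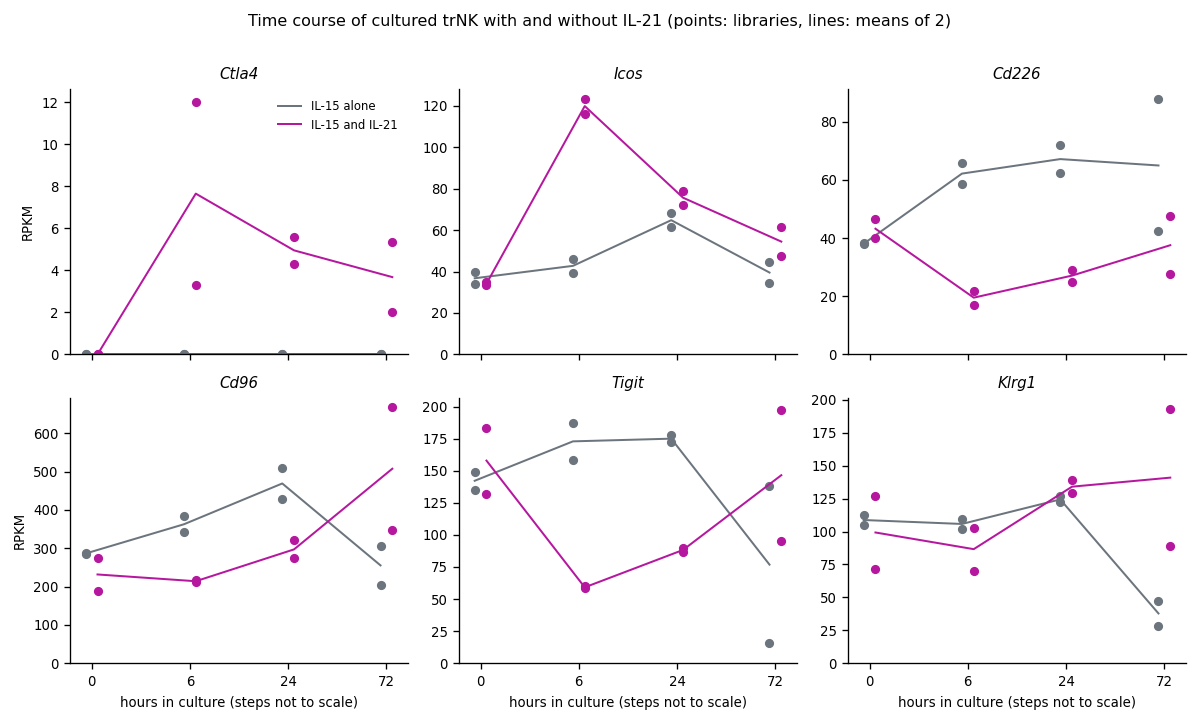
RPKM of 6 receptor genes at 0, 6, 24 and 72 h of culture in IL-15 alone or with IL-21 (points, libraries; lines, means of 2; horizontal steps not to scale). Icos with IL-21 was at 116 and 124 RPKM at 6 h and nearer to the libraries without IL-21 at 24 and 72 h, while Cd226 with IL-21 was below them at 6 and 24 h and Ctla4 was at 0 without IL-21 throughout.

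The IL-21 differences of Cd96 and Tigit had opposite signs at 24 and 72 h. Cd96 was at 384 and 341 RPKM without and 211 and 217 with IL-21 at 6 h, at 429 and 509 against 320 and 274 at 24 h, and at 307 and 204 against 668 and 347 at 72 h. It was thus lower with IL-21 at 6 and 24 h and higher at 72 h, with no overlap at any of the 3 times, a separation frequent among all genes at each time, as given above. The sum of the 7 gamma delta T cell genes turned in the same way, at 113 to 151 RPKM without against 69.7 to 92.7 with IL-21 at 6 h, 142 to 158 against 78.9 to 91.8 at 24 h, and 97.1 to 123.5 against 169 to 194 at 72 h. Not every gene of that list turned. At 72 h Tcrg-C1 was at 0 and 43.95 RPKM without and 2.69 and 0 with IL-21, and Cd3e was at most 0.01715 RPKM. The part of the gamma delta T cell genes in the Cd96 and Tigit differences was not tested. The log2 differences were -0.79 at 6 h (edgeR adjusted p = 0.0954), -0.76 at 24 h (0.107) and 0.88 at 72 h (0.0245, under the fold change of 2). The IL-21 effect at 72 h exceeded that at 24 h by 1.65 on the log2 scale (standard error 0.30, edgeR adjusted p = 0.00866), the only 1 of the 5 genes called in this interaction, where 4.23% of all genes were called, while DESeq2 also called Klrg1 and edgeR without a filter Tigit. Without the 24 h IL-21 replicate 2 the interaction was not called (1.56, edgeR adjusted p = 0.0614), nor with only the libraries of these times in the fit (edgeR adjusted p = 0.116). Tigit was at 187 and 159 RPKM without and 60.0 and 58.3 with IL-21 at 6 h, at 172 and 178 against 89.9 and 86.6 at 24 h, and at 138 and 15.6 against 198 and 95.5 at 72 h. The low value of 15.6 was that of the 72 h IL-15 replicate 2, the lowest Tigit level of all 34 libraries. The IL-21 log2 difference of Tigit was -1.58 at 6 h (standard error 0.63, edgeR adjusted p = 0.313), -1.09 at 24 h (0.481) and 0.89 at 72 h (0.412). With only the libraries of 1 time in the fit, edgeR called Tigit lower at 6 h (adjusted p = 0.000911) and at 24 h (0.000172), where 7.14% and 10.5% of all genes were called. Without the 72 h IL-15 replicate 1 Tigit was called higher with IL-21 at 72 h, at 2.98, against the lone library at 15.6 RPKM.

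Havcr2, Pdcd1 and Lag3 were low throughout the time course. Havcr2 lay between 0.171 and 3.78 RPKM from 0 to 24 h, had 0 counts in both 72 h libraries without IL-21 and was at 0.301 and 0.657 RPKM with IL-21, at least 14.7-fold higher. Under filterByExpr, Havcr2 was called at 72 h (edgeR adjusted p = 0.015) and on average (0.0274), and also lower at 72 h than at 24 h without IL-21 (0.00957, background 7.68%), where it was at least 22.2-fold lower. That bound was 5.27-fold without the 24 h IL-15 replicate 1 and 39.1-fold without replicate 2, and the bound for IL-21 at 72 h was 9.26-fold without the IL-21 replicate 2. Pdcd1 had counts in 2 of the 16 libraries, at most 0.664 RPKM, and Lag3 reached 3.86 RPKM in 1 of the IL-21 libraries of 72 h and 0.299 RPKM in the other. Over time without IL-21, edgeR called none of the 5 genes between 0 and 6 h, where 0% of all genes were called, or between 6 and 24 h (0.0857%), with 1 and 2 genes at an unadjusted p below 0.05 and none called by DESeq2. The interaction between 6 and 24 h likewise called none with edgeR (0% of all genes), with Icos alone at an unadjusted p below 0.05.

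Both cultures give an IL-21 effect at 72 h, in IL-15 medium and from gd6.5 cells, but in separate experiments, for which the labels and the study's methods give different library kits. The log2 difference made by IL-21 in the inhibitor culture and in the time course was 1.57 and 0.39 for Icos, -1.67 and -0.87 for Cd226, -0.91 and 0.88 for Cd96, -0.66 and 0.89 for Tigit and -0.16 and 1.72 for Klrg1. Ctla4 was higher with IL-21 in both, 4390-fold per counted read in the inhibitor culture and at least 96.8-fold at 72 h in the time course. With 1 read and 0 reads in the groups without IL-21, the ratio of these effects is not defined. Icos and Cd226 also had the same sign in both, and Cd96 and Tigit had opposite signs. The sign of Klrg1 in the inhibitor culture was not settled, since the value was 0.30 without trNK_ctrl replicate 2. Of the 9 genes, 6 entered the test of the difference between the cultures, Ctla4 with empty groups, and edgeR called none, as for 0% of the 4229 genes tested, while Icos, Cd96 and Klrg1 had an unadjusted p below 0.05 and DESeq2 called Icos (-1.29) and Cd96 (1.66). Without the 72 h IL-15 replicate 1, edgeR called Tigit (3.63, edgeR adjusted p = 0.0144). The difference was 1.75 for Cd96 (edgeR adjusted p = 0.23) and 1.85 for Klrg1 (0.561) with all libraries.

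Other genes of the pathways were followed as lists of 15 ligand, 12 related receptor and 12 signalling genes. These lists too were chosen with earlier results of these data known, so their counts beside shares of all genes are a description only. Calls of list genes are those of edgeR under the RPKM filter with all libraries. They were not examined under the alternatives or with a library left out, where many receptor calls were lost. Between trNK-T and trNK-V, 5 of the 9 tested signalling genes fell and none rose, where 13.1% of all genes fell and 8.05% rose, with a median log2 difference of -1.19 against -0.0151 over all genes. These were Lck (-2.16) and Fyn (-1.70), kinases that phosphorylate receptor tails, Ptpn6 (-1.19) and Inpp5d (-1.73), which encode the phosphatases SHP-1 and SHIP-1 recruited by inhibitory receptors, and Pik3cd (-1.25), the kinase subunit downstream of costimulation. Lck was at 504 and 445 RPKM in trNK-V, 367 and 280 in trNK-D and 90.0 and 122 in trNK-T, with no overlap, and it also fell between trNK-D and trNK-T (-1.62, edgeR adjusted p = 0.0265), as did Inpp5d (-1.08, edgeR adjusted p = 0.0284), the 2 of 9 called there against 1.75% of all genes.

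Of the 6 related receptors tested between trNK-T and trNK-V, 2 fell and none rose (median -0.61), against 13.1% and 8.05% of all genes. Cd160, an HVEM-binding receptor, was at 181 and 175 RPKM in trNK-V, 61.3 and 80.5 in trNK-D and 19.2 and 37.3 in trNK-T and fell by 2.66 on the log2 scale (edgeR adjusted p = 0.00409). Crtam, a receptor for a nectin-like adhesion molecule, fell by 1.34 (edgeR adjusted p = 0.0201). In the inhibitor culture, Cd160 was at 84.9 and 54.0 RPKM without IL-21, 25 and 30.9 with IL-21 and 1.49 and 1.28 with Stattic, and the log2 difference between Stattic and IL-21 alone was -4.23 (edgeR adjusted p = 0.00651). In this culture Cd160 passed the RPKM filter only through the groups without Stattic, where it was higher. Its entry into the tests against the Stattic group was thus not independent of these differences. Cd28, the costimulatory counterpart of Ctla4 on the same stretch of chromosome 1, was at 33.3 and 41.8 RPKM without IL-21, 35.8 and 25.9 with IL-21 and 101 and 101 with Stattic, higher with Stattic than with IL-21 alone by 1.80 (edgeR adjusted p = 0.0355). In that contrast 1 of the 5 tested related receptors rose and 1 fell, where 2.96% of all genes were called, while the log2 differences of its neighbours Ctla4 and Icos were -1.12 and -0.15, neither of them called. Against no IL-21 the same 2 of 5 were called with IL-21 and Stattic, where 4.74% of all genes were called, Cd28 higher by 1.72 (edgeR adjusted p = 0.0289) and Cd160 lower (-5.35, edgeR adjusted p = 0.00284). In the time course Pvrig, an inhibitory receptor for nectin-2, fell with IL-21 at 24 h by 1.12 (edgeR adjusted p = 0.0341), the 1 of 6 related receptors called there against 1.66% of all genes.

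Among the ligands, Lgals9, which encodes the TIM-3 ligand galectin-9, fell between virgin and gd6.5 by 1.09 on the log2 scale (edgeR adjusted p = 0.0308, 1 of 5 ligands tested against 6.22% of all genes) and between trNK-V and trNK-T by 1.2 (0.0183). It was at 200 and 198 RPKM in trNK-V, 186 and 133 in trNK-D and 107 and 65.5 in trNK-T, lowest in trNK-T with no overlap. Lgals3, which encodes galectin-3, a ligand of LAG-3, rose from trNK-V to trNK-T by 1.66 (edgeR adjusted p = 0.00555). These were the 2 called of the 6 ligands tested between trNK-T and trNK-V, 1 in each direction, where 21.2% of all genes were called. Lgals3 was also the 1 of 4 tested ligands called between 72 h and 24 h without IL-21, where 14.8% of all genes were called, at 627 and 654 RPKM at 24 h and 201 and 106 at 72 h (log2 difference -1.75, edgeR adjusted p = 0.00474). In the inhibitor culture Lgals9 was at 211 and 183 RPKM without IL-21, 132 and 128 with IL-21 and 66.1 and 64.3 with Stattic, and the fall from no IL-21 to IL-21 with Stattic was called (-1.31, edgeR adjusted p = 0.0423), the 1 of 5 ligands there against 4.74% of all genes.

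In the single cells, the data deposited for virgin and gd8.5 mice list the same 15175 cells with different genes, so they were joined into 1 pooled sample and no comparison of the stages was made. With the study's limits read as UMIs (molecules counted), 4338 cells were kept, with a median of 1607 UMIs, and 1502 of them (34.6%) fell in clusters with the markers of trNK cells, called trNK-like. Read as genes per cell, the limits kept 8907 cells, and 6 of the 8 receptor levels in trNK-like cells left the intervals given below. The receptor genes were used neither to cluster the cells nor to name the clusters. There are no replicates here, hence no test, and intervals cover counting error only.

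The trNK-like cells held UMIs of all 8 genes. Levels are in CPM, the UMIs of a gene scaled to the same total of UMIs in each class, with the exact 95% Poisson interval. Klrg1 was at 205 (188 to 224), Cd96 at 155 (140 to 171), Cd226 at 101 (89.2 to 115), Tigit at 77.6 (67.0 to 89.3), Icos at 45.0 (37.1 to 54.2), Ctla4 at 27.3 (21.2 to 34.7), Havcr2 at 26.1 (20.2 to 33.3) and Pdcd1 at 8.44 (5.23 to 12.9). Free RNA gives UMIs in cells that do not express a gene, and B-like cells served as the background for it. In the 231 B-like cells the same genes were at 15.7, 26.1, 7.83, 2.61, 5.22, 5.22, 5.22 and 2.61 CPM, with median depths of 1604 UMIs there and 1691.5 in trNK-like cells. For 7 of the 8 genes the interval in trNK-like cells lay above that in B-like cells, and for Pdcd1 the intervals overlapped, so its trNK-like level was not separable from background at this depth.

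Other classes differed from the trNK-like cells in their order of receptors. In the 849 cNK-like cells (conventional NK cells), Klrg1 was higher, at 517 (479 to 556), and Tigit (24.8, 17.2 to 34.6), Cd96 (67.8, 54.7 to 83.0) and Ctla4 (5.10, 2.05 to 10.5) were lower, with intervals apart from those of trNK-like cells. The order of Klrg1 turned without the upper limit on UMIs, with 553 (546 to 559) in trNK-like and 477.5 (448 to 508) in cNK-like cells. Without that limit Tigit was at 36.3 (34.6 to 38.1) in trNK-like and 32.4 (25.1 to 41.1) in cNK-like cells, with overlapping intervals, while Cd96 and Ctla4 stayed lower in cNK-like cells with intervals apart. Ctla4 in cNK-like cells was at the level of B-like cells. In the 194 T-like cells, a cluster led by genes that include Cd8a, Cd4 and Foxp3, Icos was at 176 (134.5 to 227) and Ctla4 at 61.7 (38.2 to 94.3), both above trNK-like cells, while Tigit was at 5.88 (0.712 to 21.2). Without the upper limit Icos in T-like cells was still above trNK-like cells, at 135 (108.5 to 166) against 80.9 (78.4 to 83.5), but Ctla4 was below them, at 36.4 (23.3 to 54.2) against 71.0. Havcr2 was highest in macrophage-like cells, at 36.6 (26.3 to 49.7), with an interval that overlapped that of trNK-like cells, and without the upper limit it was at 62.9 (56.7 to 69.7) against 107 in trNK-like cells. After thinning each cell to 1000 UMIs, which left out 174 trNK-like, 40 cNK-like and 13 B-like cells with fewer UMIs, Ctla4 was found in 2.41% (1.65 to 3.39) of trNK-like, 0.494% (0.135 to 1.26) of cNK-like and 0.459% (0.0116 to 2.53) of B-like cells. Before thinning these shares were 3.93%, 0.825% and 0.866%.

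**Figure D5:**
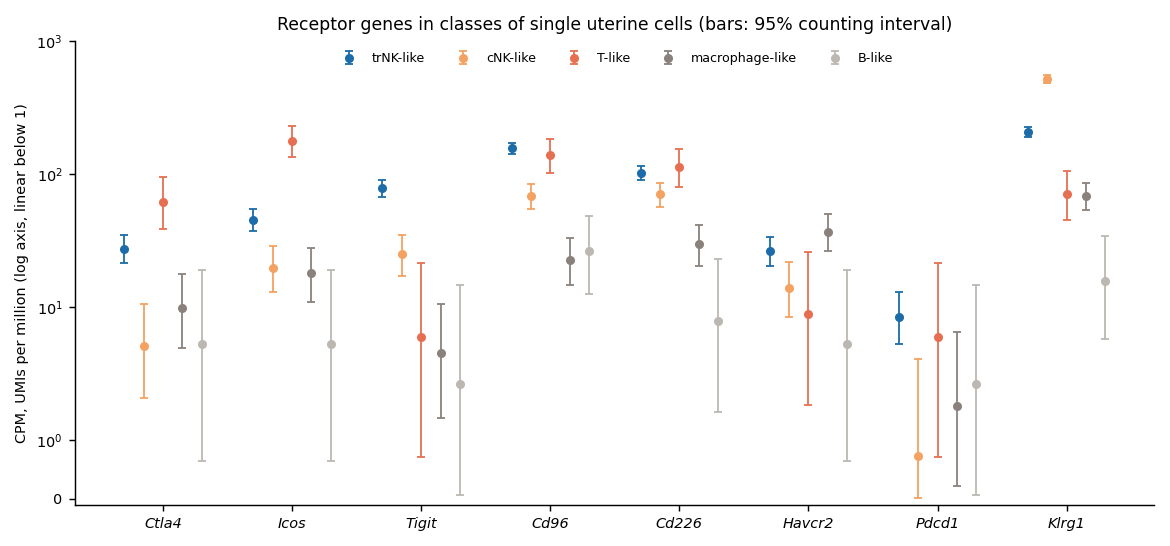
CPM of UMIs of 8 receptor genes in 5 classes of single uterine cells (points; bars, exact 95% Poisson intervals; vertical axis logarithmic, linear below 1). Klrg1 was highest in cNK-like cells (517) and Icos and Ctla4 in T-like cells (176 and 61.7), whereas Tigit was highest in trNK-like cells (77.6). These values hold for cells of at most 2500 UMIs, and without that limit the order of cNK-like and trNK-like cells turned for Klrg1, and that of T-like and trNK-like cells for Ctla4.

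Within the trNK-like cells, 1 cluster of 303 cells held 4 of the 6 terminal-stage markers as well as the dividing-cell markers, and 3 clusters of 352 to 441 cells held none of the terminal markers, with a further 45 trNK-like cells in a cluster led by interferon-induced genes. Ctla4 was at 62.7 (42.3 to 89.5) in the former and 16.3 to 23.5 in the latter, Havcr2 at 94.0 (68.6 to 126) against 6.95 to 15.1, and Klrg1 at 449 (391 to 513) against 104 to 217. Tigit was at 14.6 (5.88 to 30.1) against 87.2 to 108 and Cd226 at 29.2 (16 to 49.1) against 61.9 to 149. Cd96 was at 129.5 (99.3 to 166) against 149 to 178. The intervals of Ctla4, Havcr2, Klrg1 and Tigit in the first cluster lay apart from those of the 3 others. These cells are pooled from 2 stages, and the sorted bulk subsets are independent libraries.

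The upper limit of 2500 UMIs removed 8849 of the 15175 cells. Without it 13084 cells were kept and 5873 were trNK-like, with a median of 6094 UMIs. An unnamed cluster of 1891 cells (median 7482 UMIs) was left out of that class and of the clusters compared below. In that cluster Eomes was at 437, Tnfrsf9 at 965, Cd55 at 422.5 and Itga1 at 122 CPM. Ctla4 was then at 71.0 (68.6 to 73.4), Havcr2 at 107 (104 to 110), Klrg1 at 553 (546 to 559), Tigit at 36.3 (34.6 to 38.1) and Cd226 at 29.9 (28.4 to 31.5) CPM in trNK-like cells. Relative to the 1502 cells, Ctla4, Havcr2 and Klrg1 were higher and Tigit and Cd226 lower, with intervals apart from those of the narrower set. Between 2 of these clusters, 1 of 2079 cells with 4 of the 5 virginal-stage markers (median 2596 UMIs) and 1 of 1253 cells led by Gzmf and Gzmg (median 11615 UMIs), Ctla4 was at 34.1 and 93.2, Icos at 52.5 and 111, Havcr2 at 9.18 and 216, Klrg1 at 207 and 799, Tigit at 101 and 13.4, Cd226 at 88.1 and 4.80, Cd96 at 183 and 150, and Pdcd1 at 13 and 14. A further cluster of 1440 cells led by Ccl1 lay between them for 6 of these genes and was highest for Pdcd1 among the 3 (22.5). In B-like cells of this wider set Klrg1 was at 120 and Havcr2 at 22.4, so the Havcr2 level of the 2079 cells was below that of the background.

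The genes most like each receptor gene were sought over the 34 libraries, by Pearson's r of log2(RPKM + 1) with the mean of each experiment taken off, among 5677 genes. These values are a description without a test, since the libraries share experiments and groups and Ctla4, Havcr2, Pdcd1 and Lag3 were at or near 0 in many of them. Nearest to Ctla4 were Serpine2 (0.838), Clec4e (0.808) and AA467197 (0.797), and nearest to Icos was Ctla4 itself (0.7), before Ly6a (0.667) and Hmox1 (0.665). Tigit lay nearest to Xpa (0.838), Selenop (0.809) and Krtcap3 (0.799), Cd96 to Tmem50a (0.801), Kxd1 (0.789) and Gm17745 (0.779), and Cd226 to Klrb1c (0.843), Mxd4 (0.81) and Phactr3 (0.796). Havcr2 lay nearest to Gm15590 (0.788), Canx (0.782) and Ftl1 (0.775), Pdcd1 to Tmprss6 (0.775), Ptprcap (0.701) and Dsc2 (0.658), Klrg1 to Dixdc1 (0.774), Tspan31 (0.764) and Ssr2 (0.732), and Lag3 to Ehd1 (0.666), Ly6a (0.641) and Ccn5 (0.622). Among the 9 receptor genes themselves, r was lowest between Ctla4 and Cd226 (-0.73) and between Cd226 and Havcr2 (-0.643), and it was 0.612 between Ctla4 and Havcr2 and 0.571 between Tigit and Cd226.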

How the data were processed

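Bulk RNA-Seq and single-cell RNA-Seq of mouse uterine cells were analysed. The deposited bulk files hold read counts per gene, which the authors made with HISAT2 2.1.0 (mm10) and, per the submitters' processing notes, featureCounts, while the study's methods name RSEM. The deposited single-cell files hold counts of UMIs per gene and cell.

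RPKM was computed from the counts, the exonic gene lengths and the library totals. The 20 comparisons were fitted on all genes that passed the filter, within each experiment, with edgeR 4.0.16 in R 4.3.3 (TMM scaling, quasi-likelihood test, Benjamini-Hochberg adjustment), in place of the limma pipeline of the study's methods, since the files hold counts. Total counts limit the precision of low genes, and intervals cover counting error only. Alternatives were other filters, DESeq2 1.42.0, limma-voom 3.58.1, RLE scaling, a replicate block, the compared groups alone and each library left out. Statistics were tested on simulated data.

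Cells with 200 to 2500 UMIs and under 10% mitochondrial UMIs were kept and clustered in scanpy 1.11.5 (2000 variable genes, 20 components, Leiden resolution 0.8) without the receptor genes. Thresholds for naming clusters were set after the clusters were seen. Scrublet marked 2 cells, and none were removed.

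Named were all 9 receptor genes in every comparison, called genes of the 3 pathway lists, and for each receptor gene the 3 genes with the highest correlation. The members and lists were chosen with earlier results of these data known. Promoter sequences are from RefSeq, where 5 of the 9 genes matched. The chromatin accessibility libraries were not used here.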

Additional observations from a re-analysis of the deposited data

Results flagged for a closer look

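The effect of IL-21 on Cd96 differed between 72 h and 24 h by 1.65 on the log2 scale, called in the test of the interaction itself. The effect on Pvrig, an inhibitory receptor for nectin-2, differed between the same times by 1.41 (edgeR adjusted p = 0.0345), with 130 and 141 RPKM without IL-21 against 70.6 and 62.9 with it at 24 h, and 99.9 and 94.8 against 174 and 86.3 at 72 h, where the libraries overlapped. The Pvrig call was not examined under the alternatives. Cd96 also lay on opposite sides at 6 h and 72 h, lower with IL-21 in both libraries at 6 h and higher in both at 72 h (log2 difference 0.88), and this difference between 6 h and 72 h was not tested.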

How the results depend on the processing

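With filterByExpr in place of the limit on RPKM, the number of receptor genes called was 0 between gd6.5 and virgin, 2 between trNK-T and trNK-V, 0 for IL-21 in the inhibitor culture, 1 for IL-21 with Stattic against no IL-21, 0 at 6 h, 0 at 24 h, 3 at 72 h, 3 averaged over time and 2 between 72 h and 24 h, where in the same order 0.0356%, 6.75%, 0%, 0.154%, 0.0672%, 0.00672%, 5.07%, 2.78% and 7.68% of all genes were called. With no filter it was 2 between gd6.5 and virgin, 1 between gd8.5 and gd6.5, 2 between trNK-D and trNK-V, 4 between trNK-T and trNK-D, 3 for IL-21 and 2 for Stattic in the inhibitor culture, 3 at 72 h, 3 averaged over time, 2 between 72 h and 24 h and 2 for the IL-21 effect at 72 h against 24 h, where in the same order 3.89%, 1.92%, 1.8%, 2.24%, 0.687%, 2.17%, 5.75%, 3.72%, 6.93% and 3.18% of all genes were called. With DESeq2 it was 2 between gd6.5 and virgin, 2 between trNK-D and trNK-V, 4 between trNK-T and trNK-D, 3 for IL-21 and 2 for Stattic in the inhibitor culture, 1 for the IL-21 effect at 24 h against 6 h, 2 at 72 h against 24 h and 2 between the experiments, against 10.3%, 3.99%, 6.96%, 3.9%, 10.7%, 0.0571%, 9.65% and 2.72% of all genes. With limma-voom it was 1 between trNK-D and trNK-V, against 0.684% of all genes. With the compared groups alone it was 0 between gd6.5 and virgin, 2 at 24 h, 0 at 72 h, 0 between 72 h and 24 h and 0 for the IL-21 effect at 72 h against 24 h, against 0%, 10.5%, 0%, 0.0857% and 1.31% of all genes. RLE scaling left all 20 counts within 1.5 times. The cause of these changes was not tested.

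With the replicate number as a block the count was 0 between gd6.5 and virgin, where Icos had an edgeR adjusted p of 0.0751, and 2 between trNK-T and trNK-D (Tigit -1.49, edgeR adjusted p = 0.0408, and Havcr2 5.31, edgeR adjusted p = 0.0236), against 0.0444% and 3.01% of all genes. The block also lost Icos between IL-21 with Stattic and no IL-21 (edgeR adjusted p = 0.102, with 1.32% of all genes called) and changed no other call. No label ties the numbers to a shared litter or day, and the correlations of same-numbered libraries ran from -0.295 to 0.104 in the gestation experiment, 0.0105 to 0.399 in the subsets, -0.509 to 0.598 in the inhibitor culture and -0.392 to 0.477 in the time course.

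Differences changed sign for Ctla4 between gd8.5 and virgin with limma-voom (0.026), for Tigit between trNK-D and trNK-V with no filter (0.0017), for Havcr2 between trNK-D and trNK-V with limma-voom (0.335) and with the replicate block (0.0224), for Klrg1 at 24 h with filterByExpr (-0.0027) and the compared groups alone (-0.0028), and for Cd96 in the IL-21 effect at 24 h against 6 h with filterByExpr (-0.0053).

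With each library left out in turn, the lone library of a group being assumed to vary like the others, the count was 0 to 5 between gd6.5 and virgin, 0 to 2 between gd8.5 and virgin, 2 to 4 between trNK-T and trNK-V, 1 to 2 for IL-21 in the inhibitor culture, 0 to 1 for Stattic added to IL-21, 1 to 2 for IL-21 with Stattic against no IL-21, 0 to 1 at 6 h, 0 at 24 h, 0 to 3 at 72 h, 1 averaged over time, 0 to 1 between 72 h and 24 h, 0 to 2 for the IL-21 effect at 72 h against 24 h and 0 to 1 between the experiments. Over these refits the share of all genes called was, in the same order, 0% to 17.1%, 0% to 10.4%, 8.89% to 18.2%, 0.0481% to 0.409%, 0.168% to 0.962%, 0.89% to 2.38%, 0% to 0.543%, 0.0286% to 0.143%, 7% to 25.8%, 4.4% to 16.5%, 6.48% to 32.7%, 1.83% to 21.9% and 0% to 9.15%, and it was 10.1% in the refit between gd6.5 and virgin that called 5 receptor genes, the one without virgin replicate 1. Signs changed in this way between gd6.5 and virgin for Ctla4 (-1.33 to 0.86), Tigit (-0.35 to 0.11), Klrg1 (-1.57 to 0.11) and Pdcd1 (-0.97 to 12.05, where the upper value was fitted against a lone virgin library at 0 counts and gives no fold change), between gd8.5 and virgin for Ctla4 (-1.14 to 1.05), Tigit (-0.051 to 0.39) and Klrg1 (-1.26 to 0.42), and between gd8.5 and gd6.5 for Pdcd1 (-0.64 to 2.22). Signs also changed between trNK-D and trNK-V for Icos (-0.045 to 0.67), Tigit (-0.52 to 0.22) and Havcr2 (-1.88 to 2.67), between trNK-T and trNK-V for Cd96 (-0.18 to 0.34) and Pdcd1 (-0.023 to 1.23), and between trNK-T and trNK-D for Pdcd1 (-0.59 to 0.67). In culture they changed for Klrg1 with IL-21 in the inhibitor culture (-0.52 to 0.30), Cd226 with Stattic added (-0.31 to 1.09), Icos (-0.15 to 0.094) and Klrg1 (-0.44 to 0.21) at 0 h, Klrg1 at 24 h (-0.018 to 0.043), Tigit averaged over time (-0.86 to 0.10), Icos (-0.014 to 0.34) and Klrg1 (-0.21 to 0.017) from 0 h to 6 h, Cd226 from 24 h to 72 h (-0.20 to 0.61) and Cd96 in the IL-21 effect at 24 h against 6 h (-0.085 to 0.22). None of the genes and comparisons in this list was called with all libraries.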
